A study of Mus musculus with 6 samples.

Results

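The secreted cytokine genes of basophil-like leukemia cells were followed in RNA-seq libraries of cells given GSK-LSD1, which inhibits LSD1 (a demethylase of histones), and of cells given the solvent DMSO. They were chosen by name as the rows of the deposited table for Il4, Il6, Il10, Il13, Tnf, Osm, Lif, Csf1, Csf2 and Tgfb1. Of these 10 genes, 9 had a row among the 15035 rows of the table and 8 passed the filter on low values (at least 3 of the 6 libraries with 10 or more). Il4 fell below that filter, and Csf2, the gene of the granulocyte-macrophage colony-stimulating factor, was not analysed here. There were 3 libraries of cells given 4 nM GSK-LSD1 and 3 of cells given DMSO, each for 48 h. Cells of both groups were BALB/c mouse bone marrow cells into which mutant CSF3R and mutant CEBPA had been introduced by retrovirus, so the DMSO cells carried both mutant genes as well. No library came from marrow without them. The labels do not say which mutations were used, whether the cells were 1 clone, or whether the 3 libraries of a group were separate cultures or animals. The p-values therefore measure the spread between these libraries, which may be technical.

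Basophils are blood granulocytes that make most of their cytokine anew when they are triggered through the IgE receptor or through receptors for alarmin cytokines. They are best known in the mouse as an early source of interleukin 4 and interleukin 13, and they can also release interleukin 6, TNF and colony-stimulating factors. Cytokines of the interleukin 6 family, here Il6, Osm and Lif, signal through the shared receptor chain gp130, while interleukin 10 and transforming growth factor beta 1 mainly restrain immune cells. The mRNAs of many of these cytokines are short-lived because AU-rich elements in their 3′ untranslated regions are bound by decay factors such as tristetraprolin.

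The description of the cells as basophil-like was checked against marker genes. All 12 listed basophil markers passed the filter. Without Csf1, which is itself one of the 12, the other 11 summed to between 44423 and 45764 in GSK-LSD1 libraries and to between 34011 and 36144 in DMSO libraries, and the lowest value of any of them in any library was 24.8. Mcpt8, the basophil protease gene, had 3240, 3411 and 3368 in GSK-LSD1 cells and 2789, 2730 and 2919 in DMSO cells. Most of the difference in the sum was Cpa3, with 23028 ± 597 in GSK-LSD1 cells and 14320 ± 982 in DMSO cells (SD, n = 3 each). Of the 11, 7 rose and 2 fell. Hdc fell from 673 ± 25.7 with DMSO to 302 ± 13 with GSK-LSD1, and Fcer1a from 5758 ± 149 to 4518 ± 265. Over all genes tested, 20.6% rose and 20.5% fell. Of the 10 listed mast cell markers 8 were in the table, and they summed to between 12943 and 13979 in GSK-LSD1 libraries and to between 10601 and 11427 in DMSO libraries. Mcpt1 had 7568 ± 391 with GSK-LSD1 and 6022 ± 305 with DMSO, and Cma1 had 3903 ± 39.2 and 3817 ± 112. Both stood above Mcpt8 in every library, while the other mast cell markers in the table stood below it. How well the listed genes tell basophils from mast cells was not tested. The neutrophil list summed to between 28075 and 29022 with GSK-LSD1 and to between 13010 and 14083 with DMSO. Its members were split: of 9 tested, 5 rose and 4 fell (Elane, Prtn3, Ctsg and Ngp), and most of the higher sum was Mmp8, with 15579 ± 296 in GSK-LSD1 cells and 2376 ± 61.2 in DMSO cells (SD, n = 3 each). Mpo, the gene of that list with the highest DMSO value, had 8951.5 ± 164 with GSK-LSD1 and 7390.3 ± 377 with DMSO, above Mcpt8 in both. The neutrophil genes Camp and Ly6g had no row, and Ltf had 2.01 ± 1.74 with GSK-LSD1 and 4.94 ± 1.98 with DMSO. Of the 8 mast cell markers tested, 5 rose and none fell. Among them Tpsab1 had 43.9, 44.5 and 44.8 in GSK-LSD1 cells and 2.93, 0 and 1.99 in DMSO cells. Each of the 3 lists thus held genes measured well above 0, though not all listed genes were. In bulk RNA it is not known whether the same cells carried the genes of different lists. More cells of a type cannot be told apart from more RNA per cell.

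Values below are scaled read counts, that is, reads per gene after division by a factor of the library. Where 1 read is set to the smallest value of each library, the totals were 9572638 to 10199533 reads. Tests were made with limma on log2(value + 1) over the 11588 genes that passed the filter, with Benjamini-Hochberg adjustment and a threshold of 0.05. Of those genes 41.1% passed the threshold, 20.6% higher and 20.5% lower with GSK-LSD1, so a single call among the cytokines is common.

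Of the cytokine genes, Il6 and Csf1 held a match to the rarest of the promoter motifs searched, which was also the motif with the most fixed letters. The 250 bases before their start sites are shown for that reason. The sequences are from RefSeq (build GRCm38.p6), in which 8 of the 10 genes were matched by symbol, all but Il10 and Osm. Capitals mark matches on either strand to 6 motifs, and no marked matches overlap. For AP-1 the letters searched were TGANTCA. For NF-kB the kappa B decamer was used. For C/EBP the letters were TTNNGNAAT. The STAT motif was TTCNNNGAA. The GATA motif was AGATAA, and for GFI1 the letters AAATCA were used.
Il6, chr5:30012864-30013113, plus strand: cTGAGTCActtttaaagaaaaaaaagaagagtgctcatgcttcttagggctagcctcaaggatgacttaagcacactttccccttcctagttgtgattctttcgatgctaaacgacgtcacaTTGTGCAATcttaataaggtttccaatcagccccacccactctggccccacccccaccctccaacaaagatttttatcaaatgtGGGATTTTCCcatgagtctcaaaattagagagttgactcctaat
Csf1, chr3:107760470-107760719, minus strand: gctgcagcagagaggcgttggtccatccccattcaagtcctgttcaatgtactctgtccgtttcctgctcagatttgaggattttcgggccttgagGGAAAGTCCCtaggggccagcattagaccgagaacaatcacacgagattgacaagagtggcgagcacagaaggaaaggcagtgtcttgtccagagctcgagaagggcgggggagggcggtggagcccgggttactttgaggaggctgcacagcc
In Il6 the matches were to AP-1 (first base at -249 from the start), C/EBP (-128) and NF-kB (-44). In Csf1 the one match was to NF-kB (-154). The NF-kB motif was present in 0.356% of 32851 promoter windows of this length, against 6.75% for AP-1, 7.02% for STAT, 10.2% for C/EBP, 9.99% for GATA and 12.4% for GFI1. A motif with more fixed letters is matched less often, so the NF-kB share is not comparable with the others. The Tnf and Tgfb1 windows held none of the 6 motifs in the letters searched. The Lif window held AP-1 (-228), and the Il13 window held GATA (-81) and GFI1 (-164). One of 2 annotated Il4 windows held GFI1 (-171), and the Csf2 window held GATA (-247). A match is a string of letters in this window and says nothing about whether a factor was bound.

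The 3′ untranslated regions were searched for ATTTA, the core of AU-rich elements, in the transcript of each gene with the longest coding sequence (GENCODE M21, GRCm38). Shown for the 5 cytokine genes that passed the threshold are the 30 bases with the most copies, with ATTTA in capitals.
Tnf, chr17:35199679-35199708, minus strand: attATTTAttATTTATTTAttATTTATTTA
Il6, chr5:30019677-30019706, plus strand: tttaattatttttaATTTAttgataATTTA
Csf1, chr3:107741109-107741138, minus strand: tttatataaggtcATTTAaatatctATTTA
Il10, chr1:131024372-131024401, plus strand: cctcgtttgtacctctctccgaaatATTTA
Tgfb1, chr7:25704990-25705019, plus strand: ccccgcccgcagcgcccggggctgtATTTA
Tnf held 8 copies in 764 bases (10.5 per kb), with the longer TTATTTATT 5 times, and Il6 held 6 copies in 427 bases (14.1 per kb). Il10 held 6 copies in 706 bases (8.50 per kb), Csf1 4 in 2111 bases (1.89 per kb) and Tgfb1 1 in 135 bases (7.41 per kb). Among 10699 tested genes the median was 1.21 copies per kb and the 90th percentile 4.17, and 7.22% held TTATTTATT. Csf1 was therefore between the median and the 90th percentile, while Tnf, Il6, Il10 and Tgfb1 lay above the 90th percentile, Tgfb1 with a single copy. Il4 (19.2 per kb, 2 copies) and Osm (5.90 per kb, 6 copies) also lay above it. Lif (2.20 per kb, 7 copies) and Il13 (4.05 per kb, 3 copies) did not. Lif held TTATTTATT 2 times and Il13 held it 1 time, whereas Il4, Il6, Il10, Osm, Csf1 and Tgfb1 did not hold it. Both directions of change thus occurred among genes above that percentile, and no test was made.

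With GSK-LSD1, Csf1, Il6 and Tnf rose, Il10 and Tgfb1 fell, and Il13, Osm and Lif did not pass the threshold. The 5 genes called were 62.5% of the 8 tested, against 41.1% of all genes, and with so few genes nothing is read from that difference. In the same 5 genes the libraries of the groups did not overlap, which held for 49.5% of all tested genes. The median log2 fold change of the 8 was 0.05, against -0.01 over all genes tested. The cytokine genes thus did not move one way.

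**Figure D1:**
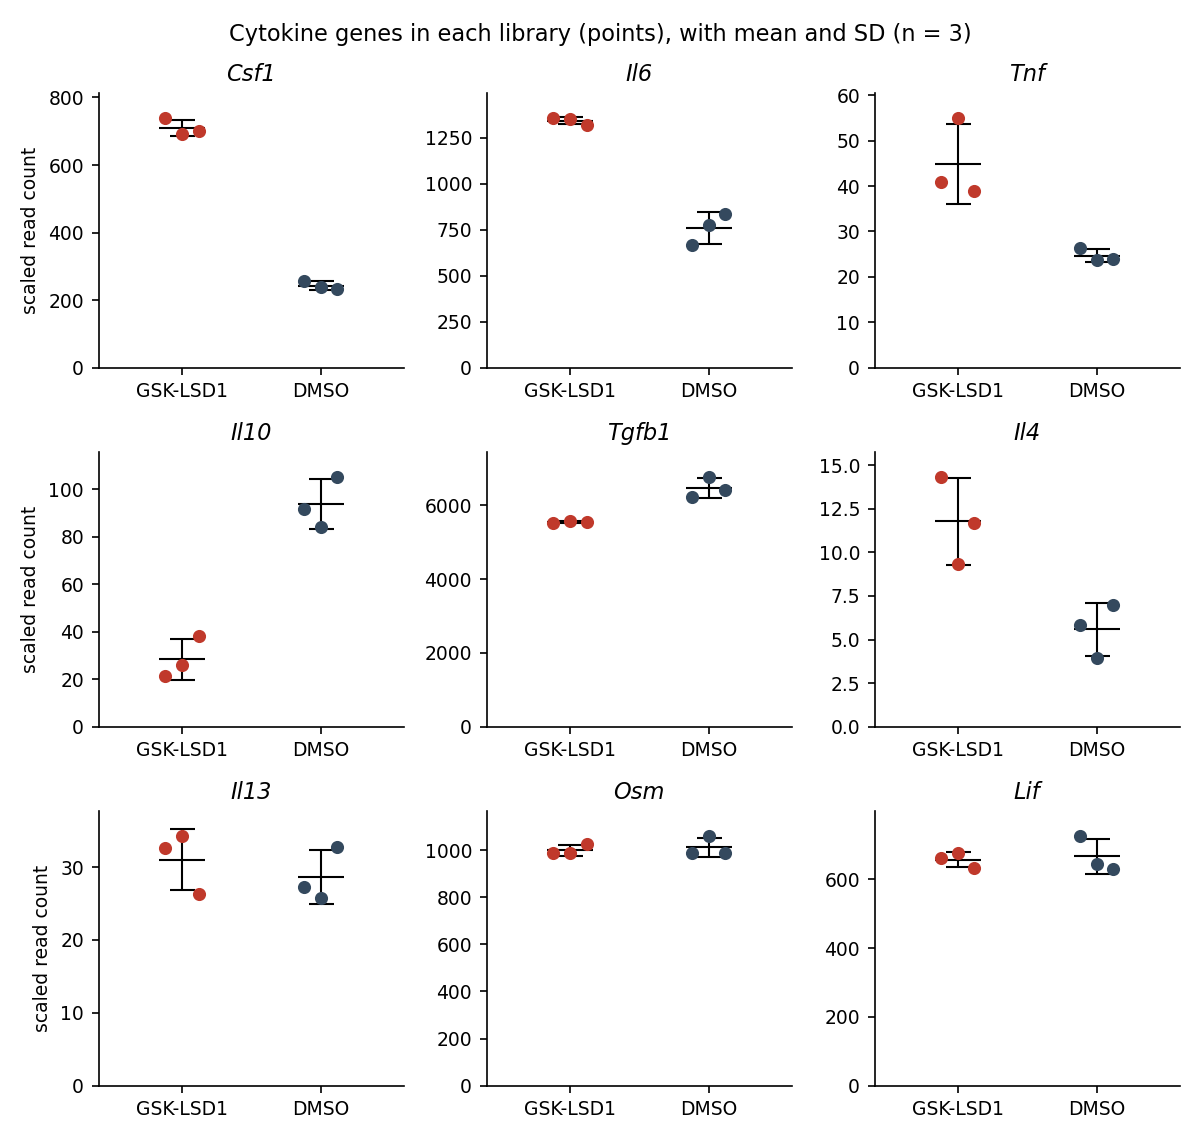
Scaled read counts (vertical axes, each from 0) of the 9 measured cytokine genes in 3 GSK-LSD1 and 3 DMSO libraries; points are libraries, the long bar is the mean and the whiskers are 1 SD. Csf1, Il6, Tnf and Il4 were higher in every GSK-LSD1 library, Il10 and Tgfb1 lower, and Il13, Osm and Lif overlapped.

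Csf1 encodes the growth factor that macrophages and their precursors need to survive (chromosome 3, 107741048 to 107760469, minus strand, GRCm38). It had 738, 693 and 702 in GSK-LSD1 cells, against 257, 239 and 232 in DMSO cells. The lowest GSK-LSD1 library was thus far above the highest DMSO library. The means were 711 ± 23.5 with GSK-LSD1 and 243 ± 12.9 with DMSO (SD, n = 3 each), 2.93-fold higher, with a log2 fold change of 1.55 (standard error 0.0711, adjusted p = 1.44e-19 by limma). It was the cytokine gene with the largest rise of the 8 tested. Csf1 is also a listed basophil marker, and 7 of the other 11 basophil markers rose and 2 fell. Over all genes tested, 20.6% rose and 20.5% fell.

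Il6 encodes interleukin 6, a cytokine of fever and the acute-phase response that also acts on blood progenitors (chromosome 5, 30013114 to 30019981, plus strand). Its values were 1355, 1351 and 1321 in GSK-LSD1 cells, against 667, 773 and 836 in DMSO cells. The GSK-LSD1 libraries lay close together and all above the DMSO libraries, which were spread more widely. The mean was 1342 ± 18.6 for GSK-LSD1 and 759 ± 85.5 for DMSO (SD, n = 3 each), 1.77-fold higher, with a log2 fold change of 0.83 (standard error 0.0616, adjusted p = 1.31e-13).

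Tnf encodes tumour necrosis factor, which is made as a membrane protein and cut free at the cell surface (chromosome 17, 35199381 to 35202007, minus strand). It was low, with 40.8, 54.9 and 38.9 in GSK-LSD1 cells, against 26.4, 23.8 and 23.9 in DMSO cells. The groups did not overlap, and GSK-LSD1 replicate 2 was the highest. In whole reads these values stand for 133 reads over the GSK-LSD1 libraries and 75 over the DMSO libraries. The means were 44.9 ± 8.70 with GSK-LSD1 and 24.7 ± 1.46 with DMSO (SD, n = 3 each), 1.82-fold higher, with a log2 fold change of 0.82 (standard error 0.213, adjusted p = 0.00205).

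Macrophages also make these 3 cytokines. Of 12 listed monocyte and macrophage markers, 6 were tested, and 5 of them rose and none fell. Over all genes tested, 20.6% rose and 20.5% fell. The list summed to between 1115 and 1200 in GSK-LSD1 libraries and to between 570 and 633 in DMSO libraries. Of these markers, Mrc1 and Ms4a7 had mean values under 5. The part of such cells in the rises of Csf1, Il6 and Tnf was not tested.

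Il10 encodes interleukin 10, an inhibitor of macrophage cytokine production (chromosome 1, 131019845 to 131024974, plus strand). It had 21.4, 25.9 and 38.0 in GSK-LSD1 cells, against 91.8, 84.2 and 105 in DMSO cells. Every GSK-LSD1 library was below every DMSO library, and GSK-LSD1 replicate 3 was the highest of its group. In reads this was 85 over the GSK-LSD1 libraries and 284 over the DMSO libraries. The means were 28.4 ± 8.55 with GSK-LSD1 and 93.5 ± 10.3 with DMSO (SD, n = 3 each), a 3.29-fold lower level, with a log2 fold change of -1.72 (standard error 0.190, adjusted p = 2.79e-09). T cells also make interleukin 10, and 7 of the 11 listed T cell markers were in the table. Their sum was between 141 and 156 in GSK-LSD1 libraries and between 334 and 385 in DMSO libraries. Most of that difference was Themis, with 20.7 ± 8.04 in GSK-LSD1 cells and 220 ± 15.7 in DMSO cells (SD, n = 3 each). Lck fell too, Cd28 rose (35.3 ± 2.39 with GSK-LSD1 and 11.5 ± 0.55 with DMSO), and Cd3g, not tested, had 10 ± 3.38 with GSK-LSD1 and 3.95 ± 0.0394 with DMSO. The defining markers Cd3d, Cd5 and Bcl11b had mean values under 5 in these libraries, and Cd3d had 0 reads in all with GSK-LSD1 and 3 with DMSO. The part of such cells in the fall of Il10 was not tested.

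Tgfb1 encodes transforming growth factor beta 1, which is secreted in a latent form (chromosome 7, 25687002 to 25705077, plus strand). It had the highest values of the cytokine genes, with 5511, 5579 and 5543 in GSK-LSD1 cells and 6231, 6760 and 6430 in DMSO cells. The difference was small beside that of Il10, but the groups did not overlap. The means were 5544 ± 33.9 with GSK-LSD1 and 6473 ± 267 with DMSO (SD, n = 3 each), 1.17-fold lower, with a log2 fold change of -0.22 (standard error 0.0432, adjusted p = 7.15e-05).

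Il4 and Il13, the type 2 cytokine genes for which basophils are best known, were both low. Il4 (chromosome 11, 53602982 to 53618669, minus strand) had 14.3, 9.32 and 11.7 in GSK-LSD1 cells, against 5.86, 3.96 and 6.97 in DMSO cells. The groups did not overlap, but the values stand for only 35 reads over the GSK-LSD1 libraries and 17 over the DMSO libraries. The ratio was 2.10, with a 95% counting interval of 1.15 to 4.00 that covers counting error only. The filter left Il4 out of the test. In the fit without a filter, its log2 fold change was 0.96 (standard error 0.358, adjusted p = 0.0432 by limma), in a setting in which 16.4% of all 15035 genes were called higher.

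Il13 lies 12654 bases from Il4 (chromosome 11, 53631324 to 53634702, minus strand) and encodes interleukin 13, which acts on epithelium and macrophages. It had 32.6, 34.2 and 26.3 in GSK-LSD1 cells, against 27.3, 25.8 and 32.8 in DMSO cells. The groups overlapped. The means were 31.0 ± 4.18 with GSK-LSD1 and 28.7 ± 3.72 with DMSO (SD, n = 3 each), with a log2 fold change of 0.11 (standard error 0.223, 95% interval -0.34 to 0.56, adjusted p = 0.724). In reads this was 92 over the GSK-LSD1 libraries and 87 over the DMSO libraries. The difference in response between Il4 and Il13 was not tested, and the sign for Il13 turned under quantile scaling.

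Osm and Lif lie side by side, 16530 bases apart, and encode oncostatin M and leukemia inhibitory factor. Osm (chromosome 11, 4236420 to 4241026, plus strand) had 986, 987 and 1025 in GSK-LSD1 cells, against 988, 1058 and 988 in DMSO cells. Its log2 fold change was -0.02, with a 95% interval of -0.13 to 0.09 (adjusted p = 0.824). Lif (chromosome 11, 4257557 to 4272514, plus strand) had 662, 677 and 633 in GSK-LSD1 cells, against 725, 645 and 631 in DMSO cells. Its log2 fold change was -0.02, with a 95% interval of -0.15 to 0.11 (adjusted p = 0.834). The groups overlapped for both genes, and the sign of both changes turned with the scaling between libraries. The intervals of both lay below the 0.70 to 0.95 of Il6, the third cytokine of the family measured here, although the difference between the genes was not tested.

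Set on one scale as scaled counts per kb of the transcript with the longest coding sequence, the cytokine genes spanned a wide range of levels. In GSK-LSD1 cells the order of levels per kb was Tgfb1 (2549), Il6 (1176), Osm (440), Csf1 (170), Lif (163), Tnf (27.4), Il13 (25.7), Il10 (21.7) and Il4 (19.9). The libraries of Csf1 and Lif overlapped there, as did each of the last 4 genes with the next. In DMSO cells the order of levels per kb was Tgfb1 (2976), Il6 (665), Osm (445), Lif (166), Il10 (71.4), Csf1 (58.1), Il13 (23.8), Tnf (15.1) and Il4 (9.49), and no neighbours overlapped. Il10 thus stood above Csf1 in DMSO cells and below it in GSK-LSD1 cells. The length matters for Il6, whose annotated exons together are longer than this transcript: per kb of all its exons it had 553 with GSK-LSD1 and 312 with DMSO, and Osm, at 440 and 445, then stood above it in DMSO cells. Per kb of all exons, Lif (151) also stood above Csf1 (135) in GSK-LSD1 cells without overlap, and Il4 (9.58) no longer overlapped Il10 (21.7) there.

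**Figure D2:**
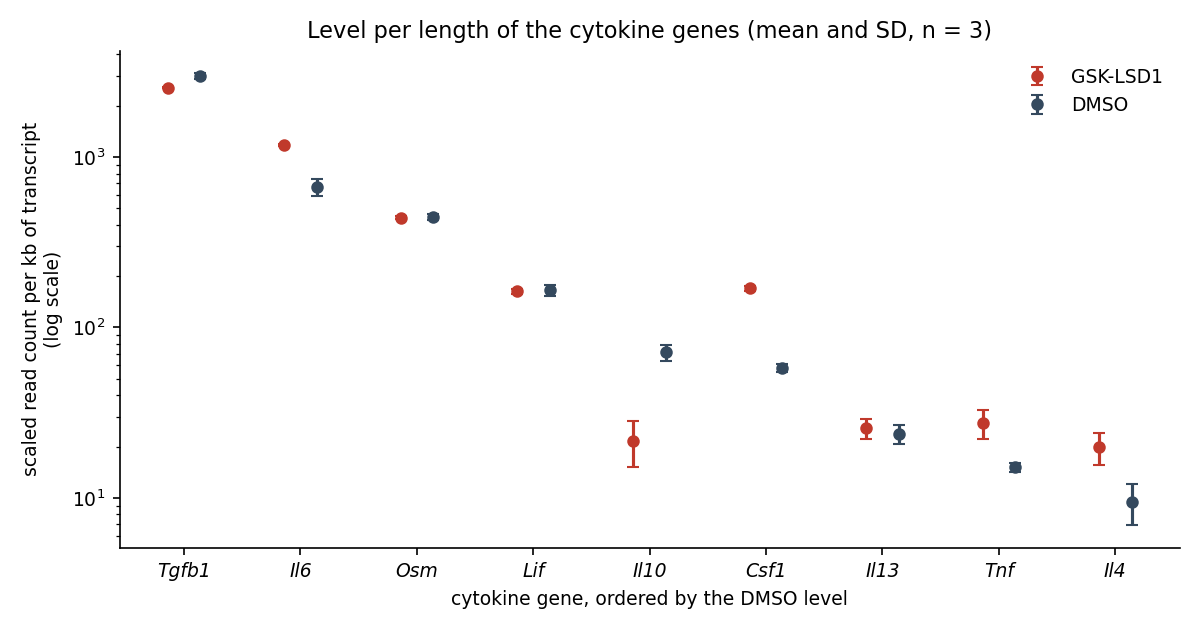
Scaled read count per kb of transcript (log axis) of the 9 measured cytokine genes, in order of the DMSO level; points are means and bars 1 SD over 3 libraries. Csf1 stood at 170 per kb with GSK-LSD1 and 58.1 with DMSO, and Il10 at 21.7 with GSK-LSD1 and 71.4 with DMSO.

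The summed scaled count of the 9 genes was between 9337 and 9412 in GSK-LSD1 libraries and between 9019 and 9613 in DMSO libraries, so the ranges overlapped. What each gene contributed to that sum differed. Tgfb1 made up 58.9% to 59.4% with GSK-LSD1 and 69.1% to 70.3% with DMSO. Il6 made up 14.1% to 14.5% with GSK-LSD1 and 7.40% to 9.01% with DMSO, and Csf1 7.37% to 7.88% with GSK-LSD1 and 2.48% to 2.85% with DMSO.

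The receptor chains for the 10 cytokines were described as a list of 19 genes, of which 18 were in the table and 15 were tested. With GSK-LSD1, 11 rose, none fell and 4 did not pass the threshold, and the median log2 fold change was 0.32. Over all genes tested, 20.6% rose and 20.5% fell, with a median of -0.01. Il10ra, the chain that binds interleukin 10, had 142, 145 and 145 in GSK-LSD1 cells and 30.3, 21.8 and 32.8 in DMSO cells. Its log2 fold change was 2.33 (standard error 0.165, adjusted p = 3.34e-14), opposite in direction to that of Il10. The partner chain Il10rb, shared with other cytokines, had a log2 fold change of 0.02 (adjusted p = 0.884), whose sign turned with the scaling.

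For interleukin 6, both chains rose together with the ligand gene. Il6ra, which binds the cytokine, had 134, 146 and 115 in GSK-LSD1 cells and 44.9, 28.7 and 56.7 in DMSO cells (log2 fold change 1.62, adjusted p = 1.70e-09). Il6st, which encodes gp130, had 1433, 1438 and 1358 in GSK-LSD1 cells and 499, 448 and 509 in DMSO cells (log2 fold change 1.54, adjusted p = 7.55e-22). The private chains of the other 2 members of that family were near the floor: Osmr had 1 read over the GSK-LSD1 libraries and 3 over the DMSO libraries, and Lifr had 8 and 2. Neither was tested.

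Csf1r, the receptor of the Csf1 product and a macrophage gene, had 54.1, 49.7 and 31.1 in GSK-LSD1 cells and 16.6, 9.91 and 8.96 in DMSO cells. The log2 fold change was 1.85 (standard error 0.273, adjusted p = 9.21e-07). Its exons overlap those of Hmgxb3 on the other strand, and whether counting used strand is not stated, so its value is uncertain. The ligand gene and the receptor gene thus both rose.

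The TNF receptor chain Tnfrsf1b rose (log2 fold change 0.33, adjusted p = 0.000279), while Tnfrsf1a had a log2 fold change of 0.11 (adjusted p = 0.134). Tgfbr2, which binds transforming growth factor beta, rose at a log2 fold change of 0.30 (adjusted p = 4.03e-05), while its signalling partner Tgfbr1 had 0.09 (adjusted p = 0.181). Both ligands changed, in opposite directions, and 1 chain of each receptor rose.

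Of the chains for interleukins 4 and 13, Il2rg, the common gamma chain, had 4628, 4645 and 4841 in GSK-LSD1 cells and 2525, 2426 and 2548 in DMSO cells (log2 fold change 0.91, adjusted p = 6.35e-19). Il4ra, shared by both cytokines, had a log2 fold change of 0.13 (adjusted p = 0.0192). That call was lost when GSK-LSD1 replicate 1 (adjusted p = 0.126), GSK-LSD1 replicate 3 (0.0517) or DMSO replicate 3 (0.0618) was left out. Il13ra1 had a log2 fold change of 0.24 (adjusted p = 0.200).

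The receptor chains for the Csf2 product showed small rises. Csf2rb, the shared beta chain, had 41045, 40451 and 41405 in GSK-LSD1 cells and 37973, 36803 and 35131 in DMSO cells (log2 fold change 0.16, adjusted p = 0.00479). Csf2rb2, its close copy that serves interleukin 3 in the mouse, rose at a log2 change of 0.32 (adjusted p = 6.67e-07), and Csf2ra with 0.36 (adjusted p = 0.0031). The calls of Csf2rb and Csf2ra were lost without the mean-variance trend (adjusted p = 0.0559 and 0.0565), and that of Csf2rb under quantile scaling (log2 fold change 0.0000, adjusted p = 1). Reads of Csf2rb and Csf2rb2 can be shared, so their separate values are uncertain.

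**Figure D3:**
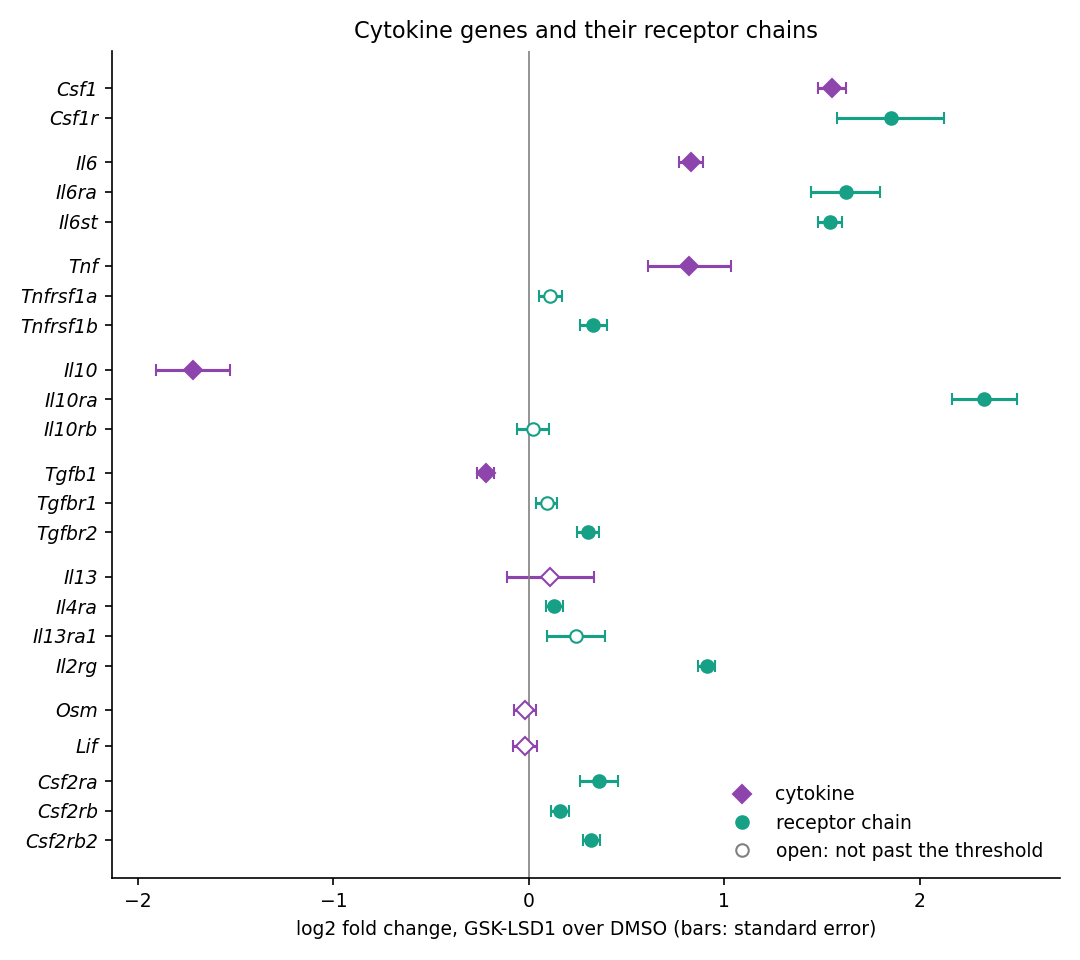
Log2 fold change, GSK-LSD1 over DMSO, of the 8 tested cytokine genes (diamonds) and of the 15 tested receptor chains (circles), with standard errors; open symbols did not pass the threshold. Il10 and Il10ra lie at -1.72 and 2.33, and Csf1 and Csf1r at 1.55 and 1.85.

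Downstream of these receptors, 15 genes of JAK kinases, STAT and SMAD factors and TNF receptor adaptors were all tested. With GSK-LSD1, 5 rose, 1 fell and 9 did not pass the threshold, with a median log2 fold change of 0.03. The share called was near the 41.1% of all genes tested. Smad3, a factor that carries the transforming growth factor beta signal, had 56.1, 63.1 and 45.7 in GSK-LSD1 cells and 28.3, 29.7 and 39.8 in DMSO cells (log2 fold change 0.74, adjusted p = 0.00266). The shared factor Smad4 and Stat5b rose with log2 fold changes of 0.26 each, and Jak1, the kinase bound to gp130, with 0.21. Tyk2 fell with a log2 fold change of -0.21. Stat3, the main factor below gp130, had a log2 change of 0.05 (adjusted p = 0.341), and Stat6, the factor of interleukins 4 and 13, had 0.03 (adjusted p = 0.715). Stat3 and Stat6 are named outside the naming rule.

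Genes of feedback inhibitors were tested in the same way. Of 12, 4 rose, 1 fell and 7 did not pass the threshold, with a median log2 fold change of 0.07. This share of calls was again near the 41.1% of all genes tested. Smad6, an inhibitory SMAD, was low, with 10.2, 13.5 and 11.7 in GSK-LSD1 cells and 4.88, 0.991 and 1.99 in DMSO cells (log2 fold change 1.96, adjusted p = 0.0012). Skil, a repressor of SMAD targets, had 307, 299 and 317 in GSK-LSD1 cells and 189, 163 and 206 in DMSO cells (log2 fold change 0.73, adjusted p = 5.40e-08). The phosphatase gene Ptpn6 rose at a log2 fold change of 0.42 (adjusted p = 8.38e-09). Socs3, the inhibitor of gp130 signalling, had 0.17 (adjusted p = 0.00478), a call lost without GSK-LSD1 replicate 2 (adjusted p = 0.0548). Socs2 fell at a log2 fold change of -0.20 (adjusted p = 0.000212).

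Among 23 listed transcription factors that act on cytokine genes, 20 were tested. Of these, 6 rose, 4 fell and 10 did not pass the threshold, with a median log2 fold change of 0.01. Of all genes tested, 41.1% were called. The AP-1 subunit gene Fos had 80.6, 89.0 and 81.8 in GSK-LSD1 cells and 27.3, 36.7 and 28.9 in DMSO cells (log2 fold change 1.42, adjusted p = 3.36e-08). Its partner Jun rose at a log2 change of 0.90 (adjusted p = 1.23e-07) and the NF-kB subunit gene Rel with 0.66 (adjusted p = 2.87e-05). Junb, a further AP-1 subunit gene, fell: it had 1499, 1573 and 1587 in GSK-LSD1 cells and 1962, 2099 and 1906 in DMSO cells (log2 fold change -0.36, adjusted p = 3.15e-07).

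Bhlhe40, a repressor of Il10 in mouse T cells and macrophages, fell together with Il10, with 817, 764 and 732 in GSK-LSD1 cells and 1075, 1058 and 1012 in DMSO cells (log2 fold change -0.44, adjusted p = 6.03e-08). Gata1 fell at a log2 fold change of -0.28 (adjusted p = 0.000377). Egr1 had -0.23 (adjusted p = 0.00652), a call lost without GSK-LSD1 replicate 1 (adjusted p = 0.055). Nfatc2, which drives Il4 and Il13 after calcium signals, had a log2 fold change of 0.25 (adjusted p = 0.0446), but the adjusted p was between 0.0723 and 0.235 when GSK-LSD1 replicate 2, GSK-LSD1 replicate 3, DMSO replicate 1 or DMSO replicate 3 was left out. Maf, an activator of Il10 in T cells and macrophages, had 9.18, 10.4 and 3.89 in GSK-LSD1 cells and was listed at 0 in the 3 DMSO libraries. It did not pass the filter and is named outside the naming rule.

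Of 12 genes of factors that bind or degrade cytokine mRNA, 2 rose, 3 fell and 7 did not pass the threshold. Their median log2 fold change was 0.04. The share called was near the 41.1% of all genes tested. Zfp36, which encodes tristetraprolin, a decay factor that binds ATTTA elements such as those of Tnf shown above, had 549, 585 and 554 in GSK-LSD1 cells and 271, 272 and 235 in DMSO cells. Its log2 fold change was 1.12 (standard error 0.0757, adjusted p = 1.09e-14). Its relative Zfp36l2 fell, with 5908, 6092 and 5842 in GSK-LSD1 cells and 6985, 7015 and 6739 in DMSO cells (log2 fold change -0.22, adjusted p = 7.87e-05). Rc3h2 had a log2 change of 0.23 (adjusted p = 0.019), and the adjusted p was 0.117 without GSK-LSD1 replicate 3 and 0.167 without DMSO replicate 2. Zfp36 thus rose in the same libraries as Tnf and Il6.

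Some of these cytokines are released from a membrane form or from a latent complex, and 18 genes of that step were listed, of which 12 were tested. With GSK-LSD1, 7 rose, 2 fell and 3 did not pass the threshold, with a median log2 fold change of 0.23. Of all genes tested, 20.6% rose and 20.5% fell. Thbs1, which encodes thrombospondin 1, an activator of latent transforming growth factor beta, had 1301, 1271 and 1315 in GSK-LSD1 cells and 334, 335 and 318 in DMSO cells (log2 fold change 1.98, adjusted p = 5.61e-25). Ltbp4, a binding protein of the latent complex, had 39.8, 30 and 38.9 in GSK-LSD1 cells and 7.81, 6.94 and 3.98 in DMSO cells (log2 fold change 2.39, adjusted p = 7.33e-08). The gelatinase gene Mmp9, which also marks neutrophils, had a log2 fold change of 2.89 (adjusted p = 1.05e-12).

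Itgav, the integrin chain that can release transforming growth factor beta from its latent complex, fell, with 1510, 1490 and 1562 in GSK-LSD1 cells and 2732, 2397 and 2691 in DMSO cells (log2 fold change -0.77, adjusted p = 3.62e-15). Furin, the protease that cuts the precursor, had 3064, 3066 and 3053 in GSK-LSD1 cells and 4392, 4343 and 4006 in DMSO cells (log2 fold change -0.47, adjusted p = 8.49e-11). Both fell in the same libraries as Tgfb1. Rhbdf2, which guides the TNF-cleaving protease to the cell surface, rose at a log2 fold change of 0.71 (adjusted p = 6.57e-11), while that protease gene, Adam17, named outside the naming rule, had 0.11 (adjusted p = 0.112).

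The receptors and signalling genes through which basophils are triggered to make cytokines were 18, all tested. Of these, 4 rose, 4 fell and 10 did not pass the threshold, with a median log2 fold change of 0.05. These shares were near the 20.6% higher and 20.5% lower of all genes tested. Fcer1a, the IgE-binding chain, had 4820, 4408 and 4325 in GSK-LSD1 cells and 5655, 5690 and 5929 in DMSO cells (log2 fold change -0.35, adjusted p = 7.74e-08). Plcg2 fell with a log2 fold change of -0.25 and Il1rap, the co-receptor for interleukins 1 and 33, with -0.62 (adjusted p = 1.35e-05 and 3.91e-06). Il18r1, the interleukin 18 receptor, rose: it had 2371, 2417 and 2353 in GSK-LSD1 cells and 1328, 1302 and 1433 in DMSO cells (log2 fold change 0.81, adjusted p = 3.47e-16).

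The activating receptor gene Cd200r3 (log2 fold change 1.48, adjusted p = 1.54e-14), the kinase gene Lyn (0.49, adjusted p = 2.73e-08) and the interleukin 3 receptor gene Il3ra (0.32, adjusted p = 0.002) also rose. The adaptor gene Lat had a log2 fold change of -0.76 (adjusted p = 0.0117), a call lost without GSK-LSD1 replicate 3 (adjusted p = 0.0625) or DMSO replicate 1 (adjusted p = 0.0922). The trigger genes thus changed in both directions, about as often as all genes tested did, and nothing particular to them is read from that.

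Beyond the 10 genes, 47 other secreted cytokine genes were listed. Of these 33 were in the table, 17 of them with a mean value under 5, and 14 were tested. With GSK-LSD1, 8 rose, 5 fell and 1 did not pass the threshold, with a median log2 fold change of 0.41. Of all genes tested, 20.6% rose and 20.5% fell. The list was smaller with a mean value of at least 50 required, when 4 rose.

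Il15, a growth factor of NK cells, had 40.8, 45.5 and 54.5 in GSK-LSD1 cells and 15.6, 14.9 and 10.9 in DMSO cells (log2 fold change 1.70, adjusted p = 4.71e-07). Tnfsf13b, the B cell factor BAFF, had 83.7, 65.2 and 79.8 in GSK-LSD1 cells and 26.4, 23.8 and 37.8 in DMSO cells (log2 fold change 1.37, adjusted p = 3.86e-07). Il27 and Ltb, both low, also rose, with log2 fold changes of 1.41 (adjusted p = 0.00461) and 1.20 (adjusted p = 0.000404). All 4 had values under 100 in every library.

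The 4 largest falls were in genes of growth factors and of a TNF relative. Tgfa had 20.4, 16.6 and 11.7 in GSK-LSD1 cells and 30.3, 31.7 and 41.8 in DMSO cells (log2 fold change -1.07, adjusted p = 0.000996). Vegfa, the vascular growth factor, had 305, 358 and 348 in GSK-LSD1 cells and 514, 529 and 495 in DMSO cells (log2 fold change -0.61, adjusted p = 2.19e-08). Flt3l, a growth factor of dendritic cells, and Tnfsf14 fell with log2 fold changes of -0.55 and -0.48 (adjusted p = 0.000951 and 0.00549). Il5, a type 2 cytokine gene 86091 bases from Il13, had 0 reads over the GSK-LSD1 libraries and 2 over the DMSO libraries.

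**Figure D4:**
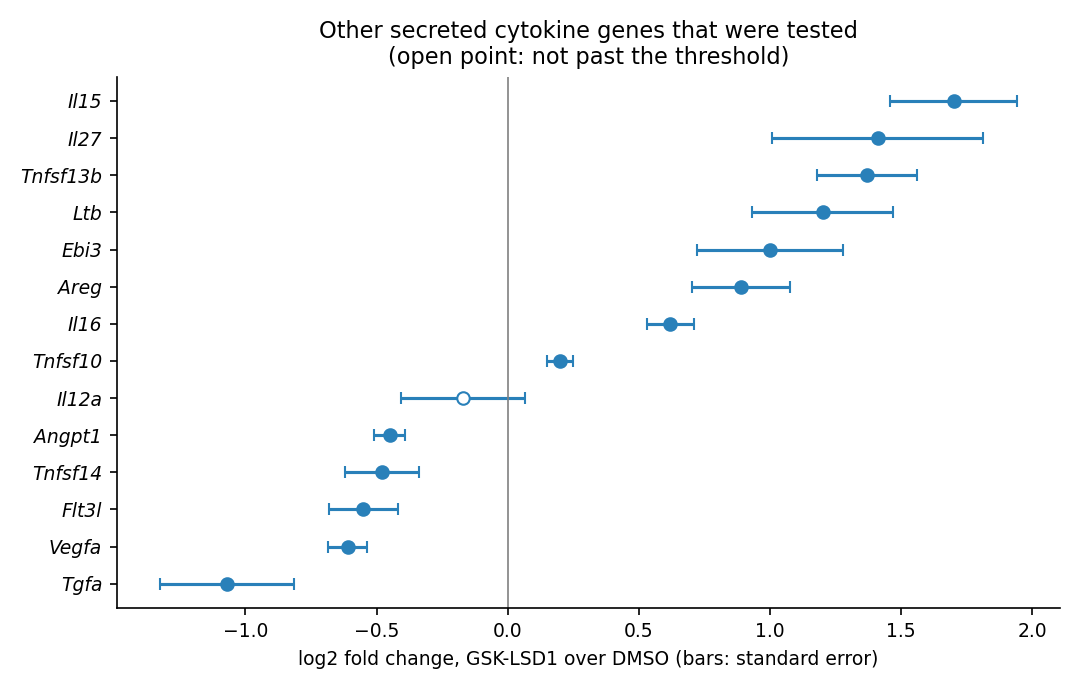
Log2 fold change, GSK-LSD1 over DMSO, of the 14 other secreted cytokine genes that were tested, with standard errors; the open point (Il12a) did not pass the threshold. The values lie between 1.70 for Il15 and -1.07 for Tgfa.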

How the data were processed

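RNA-seq was analysed from 3 GSK-LSD1 and 3 DMSO samples, grouped by their titles. The table deposited by the authors gives a normalised signal per gene symbol. By its own values this is read counts divided by a factor per library, since 100% were whole multiples of the library's smallest value (tolerance 0.02). The submitters' processing notes list STAR, DESeq2, mm10 and GRCm38, with no version or role. The counting program and its use of strand are not stated in the sources used here. Of 15035 rows, 22 had symbols turned into dates. Fits used limma 3.58.1 (R 4.3.3) with a mean-variance trend, two-sided, without a replicate term; fold changes on the log2(value + 1) scale understate changes of low genes. The cytokine genes and all lists were chosen with earlier results of these data known. Named were the 10 cytokine genes, their receptors and, per list, up to 4 genes with the largest rise and 4 with the largest fall past the threshold; for Csf1, Il10 and Il6, the 3 genes with the most similar values; and the 3 nearest genes of the table on each side. Not every gene selected is reported here. Between same-numbered libraries, deviations from the group means correlated at -0.024, -0.028 and -0.008, which gave no sign that the numbers pair samples. Such values cannot exclude a pairing. Replicates differed by more than sampling noise (chi-square per degree of freedom 1.57 to 1.86 for GSK-LSD1, 2.52 to 3.51 for DMSO) and were counted separately. Alternatives were other pseudocounts, filters, scalings, a replicate block, no trend and leaving out each library.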

Additional observations from a re-analysis of the deposited data

How the results depend on the processing

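Csf1, Il6, Tnf, Il10 and Tgfb1 kept their direction and passed the threshold in every alternative that held them (14 each, and 13 for Tnf, which a mean value of at least 50 removed), with log2 fold changes of 1.52 to 1.59, 0.74 to 0.90, 0.57 to 0.91, -1.94 to -1.54 and -0.25 to -0.18. The sign of genes near 0 turned: under quantile scaling Il13 was -0.13, Osm 0.0033 and Il10rb -0.0099, and with each library at the same total Lif was 0.0007 and Osm 0.0024. Leaving out 1 library gave Lif -0.06 to 0.04, with 0.0082 without GSK-LSD1 replicate 3, Osm -0.04 to 0.02 and Il10rb -0.06 to 0.07. With the same total, 7 trigger genes rose, and leaving out 1 library gave 4 to 7. Feedback genes lower were 2 under quantile scaling and without the trend. Without the trend, 1 mRNA decay gene rose and 1 fell, and 0 signalling genes fell; leaving out 1 library gave 1 to 2 for mRNA decay genes higher and 1 to 2 for signalling genes lower. With a mean value of at least 50, 4 other cytokine genes rose, since fewer were tested. The cause of the other moves was not tested. Without the trend the calls of Tyk2, Socs3, Egr1, Nfatc2, Rc3h2, Il4ra, Csf2ra and Csf2rb were also lost (adjusted p = 0.0532 to 0.138), and under quantile scaling those of Nfatc2 (0.11) and Csf2rb (1.0). Of 1145 comparisons over 82 named genes and Il4, 1083 stayed the same, 53 lost their call and 9 turned sign. Il4 had no call to keep, and its comparisons were counted by how far its difference of mean log2 values moved. The replicate block gave 2345 genes higher and 2316 lower, against 2389 and 2373 without it, and left the 5 cytokine calls in place (Tnf adjusted p = 0.0039); no library correlated best with its own number in the other group. The edgeR and DESeq2 alternatives were not run: DMSO replicates 2 and 3 did not pass the format check that count models required, their smallest values (0.991 and 0.995) being too near 1, although all their values were whole multiples of these. Genes with few reads, such as Il4, are limited by depth.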

Other observations

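The genes next to the cytokine genes on the chromosome were followed as a description. Of 48 such genes in the table, the 3 nearest on each side, 31 were tested, 7 rose and 8 fell. Of all genes tested, 41.1% were called, and nothing is read from that difference. Beside Tnf, the lymphotoxin beta gene Ltb, 3060 bases away, had 31.7 ± 6.41 with GSK-LSD1 and 13.2 ± 2.18 with DMSO (SD, n = 3 each), a log2 fold change of 1.20 (adjusted p = 0.000404 by limma). Lst1, 10941 bases away, had 68.5 ± 6.92 with GSK-LSD1 and 40.2 ± 2.39 with DMSO, a log2 fold change of 0.75 (adjusted p = 0.000514). Lta, on the other side of Tnf, had 1.68 ± 1.57 with GSK-LSD1 and 2.97 ± 2.99 with DMSO and was not tested, and Nfkbil1 beyond it had a log2 fold change of 0.03 (adjusted p = 0.841).

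Beside Tgfb1, B9d2, which ends 443 bases away, fell at a log2 fold change of -0.30 (adjusted p = 0.00303). Axl, a receptor kinase gene 52195 bases on the other side, rose at a log2 change of 1.75 (adjusted p = 5.61e-14), and Ccdc97 between them had -0.01 (adjusted p = 0.960). Beside Il10, Eif2d and Dyrk3 fell with log2 fold changes of -0.38 and -0.29 (adjusted p = 9.21e-07 and 7.06e-05), while Mapkapk2, which lies nearer, had -0.09 (adjusted p = 0.144). Beside Csf1 the nearest gene, Ahcyl1, had a log2 change of 0.03 (adjusted p = 0.684), and beside Il6 the nearest, Tyms, had 0.06 (adjusted p = 0.392). The rises of Csf1 and Il6 were thus not shared by the nearest gene of the table at this threshold, and the difference was not tested. Kif3a, 1014 bases from Il4, had -0.13 (adjusted p = 0.274). Beside Csf2, which was not analysed here, Fnip1 rose at a log2 fold change of 0.50 (adjusted p = 1.09e-06).

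Across the 6 libraries and the 9849 tested genes whose mean reached 50, the values most like those of Csf1 were those of Mgam (Pearson r 0.9997), Creb3 (0.9994) and Mtus1 (0.9994). Those most like Il6 were 1700071M16Rik (0.9993), Ldlrad3 (0.9986) and Zyx (0.9982), and those most like Il10 were Cmah (0.9982), Elp4 (0.9971) and Ran (0.9961). With 3 libraries in each of 2 groups these values mostly reflect the difference between the groups, and they are given as a description with no test.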
